A study of Mus musculus with 4 samples.

Results

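Potassium channel genes are described here as a set of 33 protein-coding mouse genes, out of 21792 with a RefSeq position. The genes are listed by name, and the list was drawn up with earlier results of these data known. Every listed region that shares at least 1 bp with the gene body of a member was taken, in all cytosine contexts. The authors' deposited table of differential methylation lists 101350 regions, of which 35517 touch a protein-coding gene and 156 a member. The members fall into 6 groups. There are 12 voltage-gated Kv genes (Kcna1 to Kcna6, Kcnb2, Kcnc1, Kcnc2, Kcnc4, Kcnd2, Kcnd3), 2 KCNQ genes (Kcnq3, Kcnq5) and 7 genes of the EAG family (Kcnh1 to Kcnh5, Kcnh7, Kcnh8). The others are 6 channel genes gated by intracellular calcium or sodium (Kcnma1, Kcnn1 to Kcnn3, Kcnt1, Kcnt2), 4 inward rectifiers (Kcnj3, Kcnj4, Kcnj6, Kcnj9) and 2 Kv4 auxiliary subunits (Kcnip1, Kcnip4).

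Potassium channels let potassium leave the cell and so set the resting potential of a neuron, the shape of its action potential and its firing rate. Kv channels open on depolarization, KCNQ channels carry the slowly gated M current, and small- and large-conductance calcium-activated channels follow calcium entry. KChIP proteins, which the Kcnip genes encode, bind Kv4 channels (Kcnd genes) and change their gating and surface level. In mature neurons cytosines are methylated both at CG sites and outside them, where the level is low and is read as CHG or CHH methylation (H stands for A, C or T).

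Somatosensory cortex taken at 2.5 months of age was profiled by bisulfite sequencing of the whole genome. The knockout group was labelled Nsd1Nex-cKO (cKO, 2 libraries) and the control group Nsd1fl/+ (2 libraries), so the control label itself names a floxed allele of Nsd1. NSD1 is a methyltransferase for histone H3 lysine 36, and Nex, also called Neurod6, is a gene whose promoter works in excitatory neurons of the cortex. Whether each library came from its own mouse is not given in the sources used here. The tissue also holds interneurons, glia and vessel cells in which Nex is not active, so a change in the mix of cells and a change within a cell cannot be told apart. The file gives 1 mean level per group and region, with no value per library and no depth. For that reason no spread between replicates and no test across samples stands beside any value, and all levels below are the authors' group means, expressed as percent.

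Most listed regions lay away from the start sites that RefSeq lists. RefSeq promoter windows (GRCm38.p6, the assembly of mm10) matched 27 of the 33 members, with 36 windows that run from 250 bases before to 50 after a start site. A listed region overlapped 0 of these 36, against 900 of all 32851 windows (2.74%), so that few or none would be met at the general share. The sequences below are the 250 bases before a start site of the members with the most CHH regions of each direction, written 5′ to 3′ on the gene's strand, with each CG site in capitals. Kcnip1 and Kcnh8 carried the most CHH losses, and Kcnip4 and Kcnt2 the most CHH gains. The Kcnip4 start shown (49285659) lies inside the gene body, whose 5′ end on the minus strand is at 49525122.
Kcnip1, outermost start, chr11:33993194-33993443, minus strand: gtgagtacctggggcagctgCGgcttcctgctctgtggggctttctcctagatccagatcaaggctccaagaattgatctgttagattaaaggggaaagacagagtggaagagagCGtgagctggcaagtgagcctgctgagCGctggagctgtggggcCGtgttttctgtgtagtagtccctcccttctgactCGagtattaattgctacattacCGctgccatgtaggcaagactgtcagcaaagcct
Kcnip1, internal start, chr11:33680683-33680932, minus strand: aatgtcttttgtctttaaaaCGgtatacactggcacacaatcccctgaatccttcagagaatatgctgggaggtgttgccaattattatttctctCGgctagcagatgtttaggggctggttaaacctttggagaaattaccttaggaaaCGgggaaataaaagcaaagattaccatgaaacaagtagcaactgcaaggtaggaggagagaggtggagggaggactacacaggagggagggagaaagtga
Kcnip4, chr5:49285660-49285909, minus strand: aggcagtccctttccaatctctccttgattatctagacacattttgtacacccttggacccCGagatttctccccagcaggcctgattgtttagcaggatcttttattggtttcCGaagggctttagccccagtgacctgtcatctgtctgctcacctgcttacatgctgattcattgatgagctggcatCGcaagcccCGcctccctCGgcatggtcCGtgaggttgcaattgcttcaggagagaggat
Kcnh8, chr17:52602459-52602708, plus strand: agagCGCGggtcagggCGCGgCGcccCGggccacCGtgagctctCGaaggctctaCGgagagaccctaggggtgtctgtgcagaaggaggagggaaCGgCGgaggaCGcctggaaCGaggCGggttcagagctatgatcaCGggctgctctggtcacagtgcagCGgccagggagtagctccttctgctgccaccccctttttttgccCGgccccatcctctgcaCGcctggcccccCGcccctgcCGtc
Kcnt2, chr1:140245468-140245717, plus strand: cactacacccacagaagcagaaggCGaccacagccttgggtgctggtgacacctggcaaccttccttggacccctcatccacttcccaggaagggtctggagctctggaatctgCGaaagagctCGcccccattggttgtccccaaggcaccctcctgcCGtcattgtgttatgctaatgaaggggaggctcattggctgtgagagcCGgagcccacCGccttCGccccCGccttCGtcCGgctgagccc

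These windows differ in their number of CG sites, a dinucleotide that reads the same on both strands. The outermost Kcnip1 window and the internal Kcnip4 window hold 6 CG sites each, a number that 50.4% of all windows reach or exceed. The Kcnt2 window holds 10 (37.8% of all windows have as many) and the Kcnh8 window holds 20 (17.9%). The internal Kcnip1 window holds 3 CG sites (71.0% have as many), and the nearest region, a CHH loss, lies 0.856 kb from it. Among the windows shown, the number of CG sites overlaps between the genes with the most CHH losses and those with the most CHH gains. Another Kcnip1 window (12 CG sites) and another Kcnip4 window (5) are not shown, and windows of the remaining members were not compared by direction. Listed regions lay deeper in the gene: of the 140 regions in members with a listed start site, 6 lay within 2 kb of one, and the median distance was 70.1 kb. These distances have no counterpart here over all protein-coding genes, which are shorter (median 17.2 kb, against 186 kb in members). A listed start can also lie inside the gene, as in Kcnip4.

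Of the 33 potassium channel genes, 25 held a region of some context and 8 held none, where 37.2% of all protein-coding genes held at least 1. CHH gains were the most widespread class. A CHH region higher in cKO was found in 17 members (51.5%), where 15.0% of all protein-coding genes had one. A CG region lower in cKO was found in 14 members (42.4%, against 18.6%), a CHH region lower in 8 (24.2%, against 15.2%) and a CG region higher in 7 (21.2%, against 7.26%). No member held a CHG region, a context that makes up 0.673% of the regions in protein-coding genes.

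**Figure D1:**
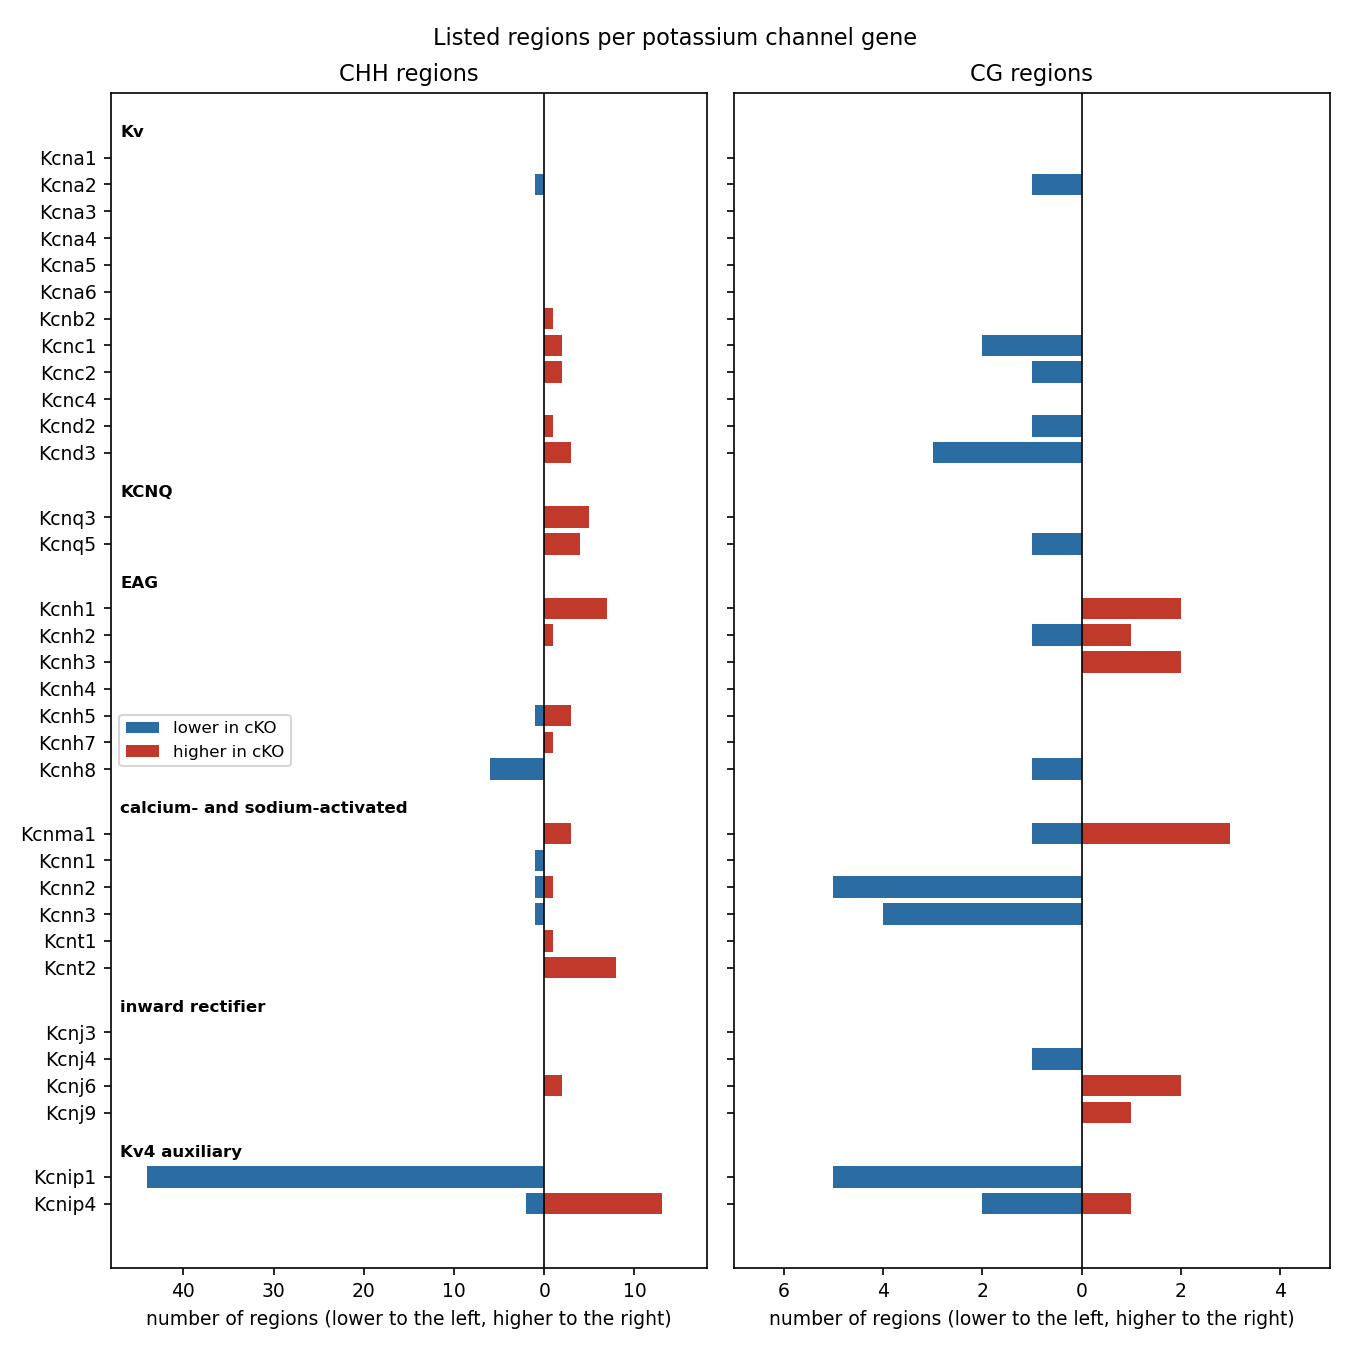
Number of listed CHH regions (left) and CG regions (right) in each of the 33 genes, by family. Bars to the left count regions lower in cKO and bars to the right regions higher in cKO. Kcnip1 stands alone with 44 CHH losses, while CHH gains are spread over 17 genes.

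Potassium channel genes are long, with a median of 186 kb against 17.2 kb for all protein-coding genes, and a long gene can hold more regions. Among genes of at least 100 kb, a length chosen after the values were seen, 18 were members, and 17 of these held a region of some context (89.4% of long genes). A CHH gain was held by 14 of them (77.8%), where 55.6% of all protein-coding genes of at least 100 kb had one. The long members were still longer than such genes, with medians of 366 kb and 172 kb. Their CHH gains came to 0.741 per 100 kb, against 0.766 in all protein-coding genes of at least 100 kb. The other classes were closer to the background of long genes: 10 of 18 held a CG loss (54.0% of long genes), 6 a CHH loss (42.4%) and 4 a CG gain (25.7%). Per 100 kb of gene, the members together held 0.758 CHH gains, against 0.755 in all protein-coding genes. They held 0.379 CG losses per 100 kb, against 1.33 in all protein-coding genes. Thus CHH gains were as dense as elsewhere in genes, while CG losses were sparser. CHH losses came to 0.745 per 100 kb with Kcnip1 and 0.178 without it, against 1.08 in all protein-coding genes, and CG gains to 0.157 against 0.233.

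By region, CHH methylation was split evenly between gains and losses, and this balance rested on Kcnip1. Of the 115 CHH regions in members, 58 were higher in cKO (50.4%, 95% exact Clopper-Pearson interval 41.0% to 59.9%), where 41.2% of the CHH regions in protein-coding genes were higher. Without Kcnip1, 58 of 71 were higher (81.7%, 70.7% to 89.9%). Counted by gene, 16 of the 22 members with a CHH region had more gains than losses, 5 had more losses and Kcnn2 had 1 of each. Of all protein-coding genes with a CHH region, 48.7% had more gains than losses. Among genes of at least 100 kb, where members were still the longer by median, the counts were 13 of 17 members and 56.9% of all protein-coding genes. In the CG context, 12 of 41 regions were higher in cKO (29.3%, 16.1% to 45.5%), where the share over protein-coding genes was 14.8%. By gene, 5 of the 18 members with a CG region had more CG gains than losses, against 24.4% of all protein-coding genes with one. The intervals cover the counting of regions only, and regions of 1 gene are not independent.

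The median levels in members were near those of other genes, and somewhat lower at CG losses. At the 58 CHH gains, control and cKO medians were 1.27% and 6.02%, with control levels from 0.266% to 5.22% and cKO levels from 2.79% to 11.6%. Over all CHH gains in protein-coding genes the medians were 1.71% and 6.93%. At the 57 CHH losses the control and cKO medians were 5.57% and 1.13%, against 5.71% and 1.10% over all protein-coding genes. No cKO level of the 57 exceeded 3.61%. The 29 CG losses had medians of 70.4% (control) and 37.8% (cKO), and the 12 CG gains of 51.4% and 75.97%. Over all protein-coding genes these medians were 75.2% and 42.5% at CG losses and 51.1% and 77.8% at CG gains. CG losses thus started from higher control levels than CG gains did, in members as over all protein-coding genes. In members the ranges overlapped (28.5% to 92.3% and 29.8% to 80.8%).

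**Figure D2:**
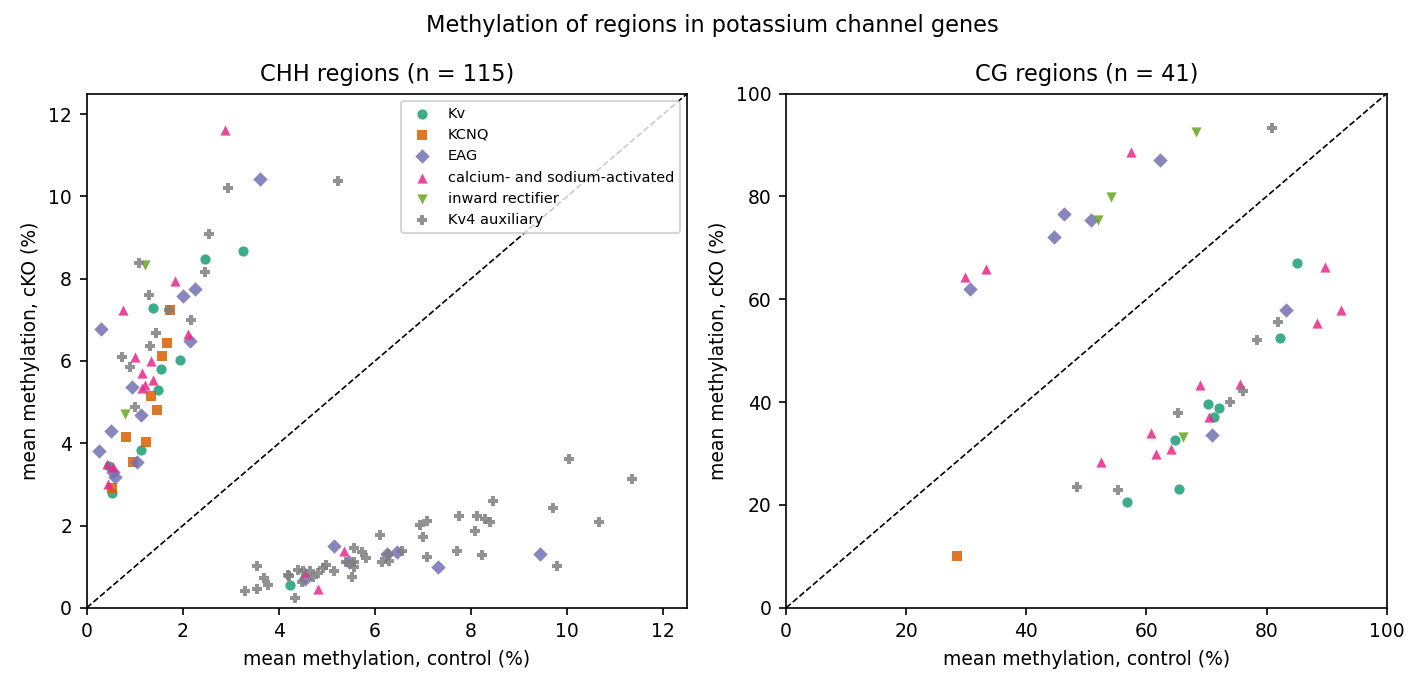
Mean methylation of each listed region in control (x axis, percent) and in cKO (y axis, percent), for 115 CHH regions and 41 CG regions, with 1 point per region and the family given by colour and shape. Points above the dashed line are higher in cKO. Of the 57 CHH losses, 46 are in Kv4 auxiliary genes, and all 8 Kv points in the CG panel lie below the line.

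The Kv4 auxiliary genes Kcnip1 and Kcnip4 went opposite ways. Kcnip1 encodes KChIP1 and Kcnip4 encodes KChIP4, both calcium-binding partners of Kv4 channels. In the authors' deposited table, Kcnip1 (chromosome 11, 33629339 to 33993348, minus strand) held 44 CHH losses and 0 CHH gains, and 16 of all 21792 protein-coding genes, Kcnip1 included, held at least as many losses. Kcnip4 (chromosome 5, 48389503 to 49525122, minus strand) held 13 CHH gains and 2 CHH losses, and 29 genes, Kcnip4 included, held at least as many gains.

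The Kcnip1 losses ran through almost the whole gene. They spanned 347 kb, or 95.5% of its length, with a median spacing of 5.73 kb and together 2452 cytosines. Control levels ranged from 3.29% to 11.4% (median 5.96%) and cKO levels from 0.235% to 3.61% (median 1.17%). The region with the largest area statistic (33766556 to 33766925, 132 cytosines) had 7.71% in control and 1.38% in cKO. The closest group was 4 losses within 2.08 kb, starting at 33751975. The 5 CG regions of Kcnip1 were losses too, for example 65.3% to 37.8% over 9 CG sites (33785541 to 33785729), and the 5 lay between 0.261 and 5.68 kb from a CHH loss. Kcnmb1, a subunit of large-conductance calcium-activated channels, overlaps Kcnip1, and 2 of the CHH losses lie in both genes.

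The Kcnip4 gains were grouped toward the 3′ end of the gene. Of its 13 CHH gains, 8 lay in the last 10% of the gene body, including a run of 5 in 12.2 kb. The gain with the largest area statistic (48411314 to 48411507, 81 cytosines) went from 0.911% to 5.84%. Over all 13, control levels ranged from 0.729% to 5.22% and cKO levels from 4.89% to 10.4%. The CG regions of Kcnip4 were 2 losses (76.1% to 42.1% over 28 CG sites at 48510193 to 48510690, and 81.9% to 55.6%) and 1 gain (80.8% to 93.4%).

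**Figure D3:**
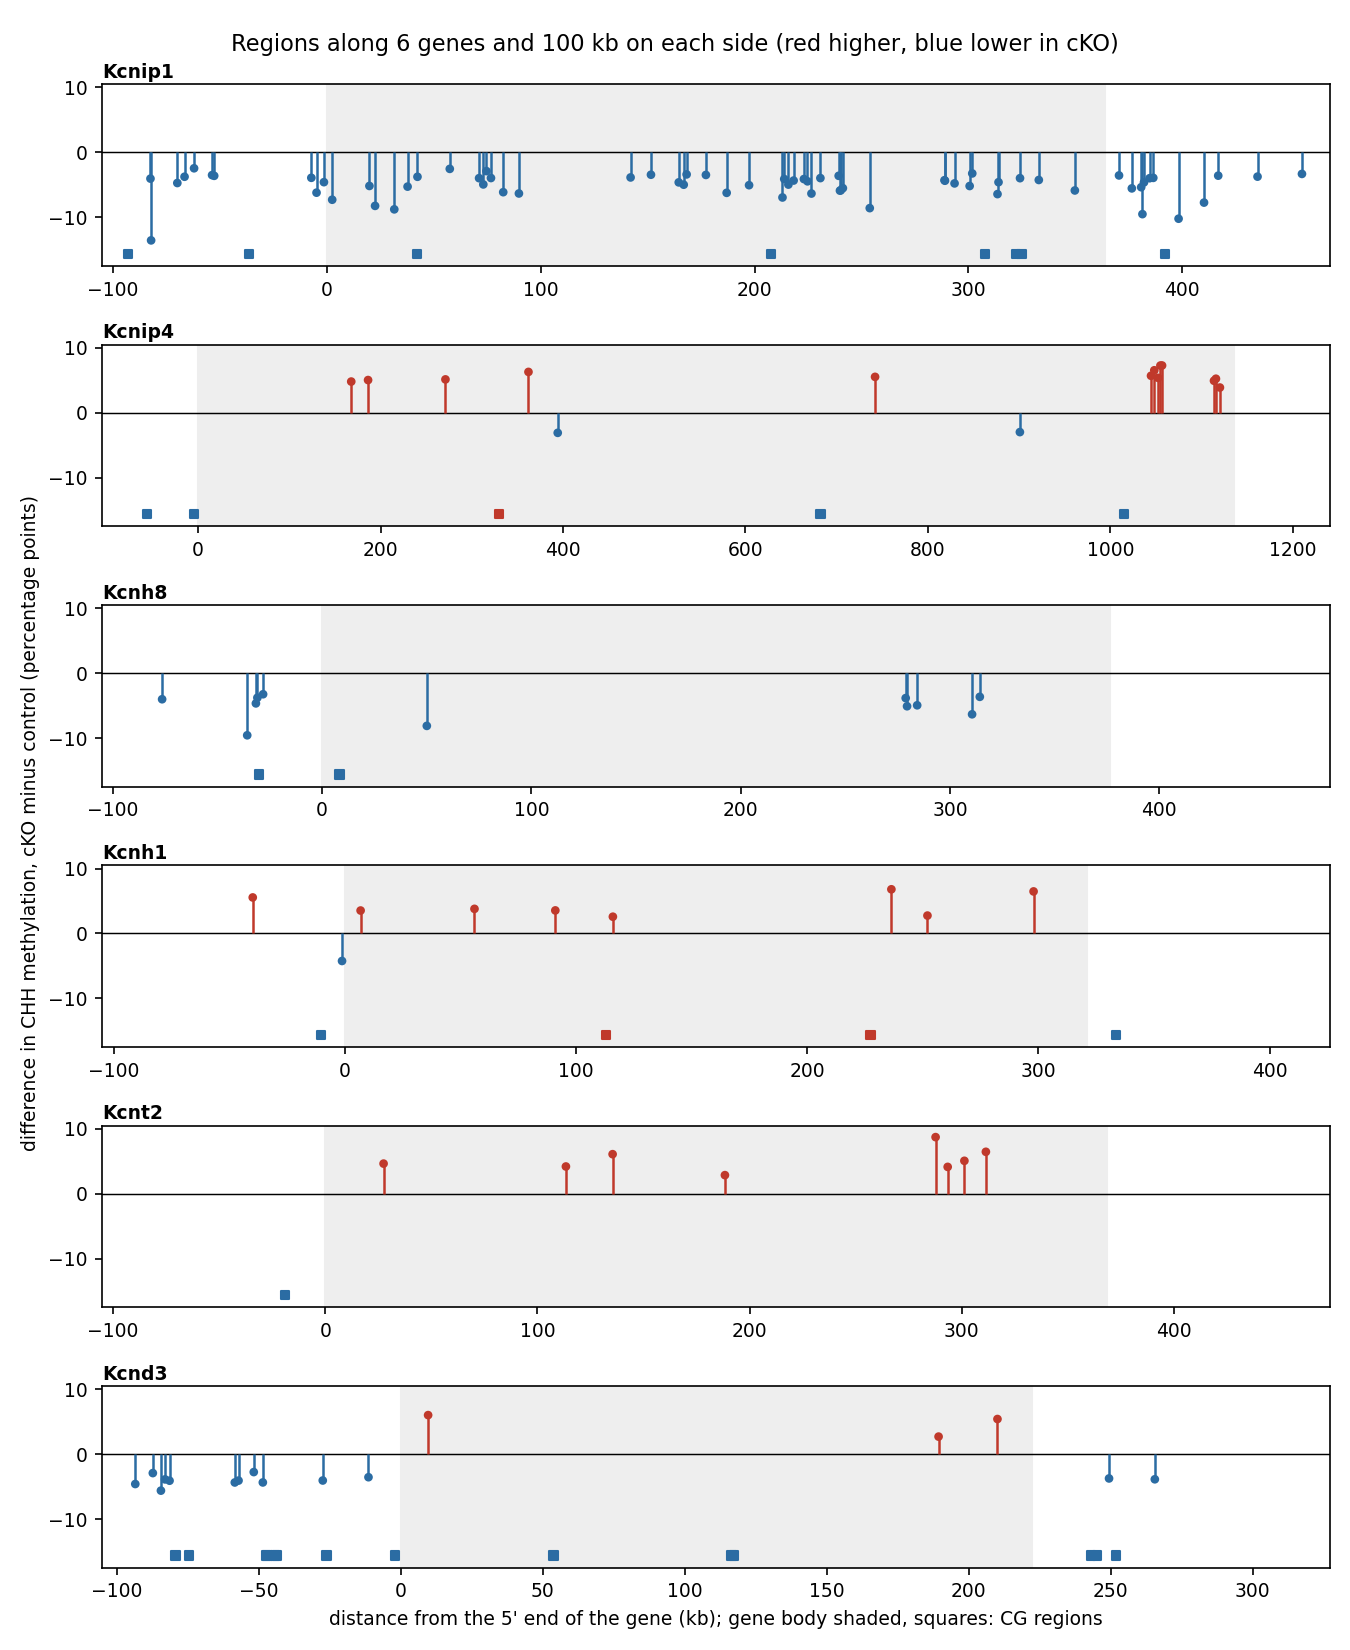
CHH regions along Kcnip1, Kcnip4, Kcnh8, Kcnh1, Kcnt2 and Kcnd3, with the distance from the 5′ end of the gene in kb (x axis) and the difference between cKO and control in percentage points (y axis). The gene body is shaded, 100 kb are shown on each side, red is higher and blue lower in cKO, and squares at the bottom mark CG regions. Kcnip1 losses run through the gene into both flanks, whereas the gains of Kcnip4 and Kcnt2 lie within the gene.

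In the Kv family, CG methylation was lower and CHH methylation mostly higher in cKO. All 8 CG regions were losses and 9 of 10 CHH regions were gains. Kcnd3, the pore of a Kv4 channel that carries the A current, held the CG loss with the largest area statistic of all members (chromosome 3, 105505349 to 105506011, 42 CG sites), from 65.4% to 23.1%. Its other 2 CG losses lay together within 1.01 kb (71.2% to 37.1% and 72.1% to 38.9%). Its 3 CHH gains lay elsewhere in the gene, the first from 2.46% to 8.48% (105461475 to 105461645, 64 cytosines), and the others from 1.13% to 3.84% and from 3.25% to 8.67%. Kcnd2, the second Kv4 pore gene, held 1 CG loss (70.3% to 39.6%) and 1 CHH gain (1.94% to 6.03%). The Kcnd genes thus showed CHH gains, like Kcnip4 and unlike Kcnip1.

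The Kv3 genes Kcnc1 and Kcnc2, whose channels permit fast firing, had the same pair of directions. Kcnc1 held 2 CG losses (56.8% to 20.6% and 85.0% to 67.0%) and 2 CHH gains (0.468% to 3.45% and 1.55% to 5.81%). Kcnc2 held 1 CG loss (64.7% to 32.6%) and 2 CHH gains (1.48% to 5.29% and 1.38% to 7.29%). Kcnb2, a delayed rectifier, held 1 CHH gain from 0.523% to 2.79%. Of the Kv1 genes, which act in axons and at their initial segments, Kcna2 was the exception to the family's CHH direction, with a loss from 4.24% to 0.560% and a CG loss from 82.3% to 52.4% over 4 CG sites. Kcna1, Kcna3, Kcna4, Kcna5, Kcna6 and the Kv3 gene Kcnc4 held no region.

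The M-current genes Kcnq3 and Kcnq5 held CHH gains and no CHH loss. Kcnq3 had 5 gains, with control levels from 0.965% to 1.66% and cKO levels from 3.54% to 6.44%, and no CG region. Kcnq5 had 4, of which the first by area statistic went from 1.57% to 6.13% over 51 cytosines (chromosome 1, 21469047 to 21469174). The single CG region of Kcnq5 was a loss from 28.5% to 10.1%, the lowest control level among the CG losses of members.

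Within the EAG family, Kcnh1 and Kcnh8 went opposite ways. Of its 19 CHH regions 12 were gains (63.2%), and without Kcnh1 the share was 41.7%. Of its 7 CG regions 5 were gains. Kcnh1, the EAG channel itself, held 7 CHH gains and 2 CG gains over 321 kb and no loss. Its first gain by area statistic (chromosome 1, 192486933 to 192487102, 58 cytosines) went from 0.294% to 6.77%, and its CG gains went from 62.2% to 87.2% and from 44.6% to 72.1%. Kcnh8, an ELK channel, held 6 CHH losses and 1 CG loss over 376 kb and no gain. Its first loss by area statistic (chromosome 17, 52652636 to 52652820, 69 cytosines) went from 9.43% to 1.31%, and 3 others formed a run of 5.71 kb. Control levels of the 6 ranged from 4.54% to 9.43%, above every control level in Kcnh1, whose highest was 3.61%. This gap goes with the direction of the regions and is not particular to these genes. Over all protein-coding genes the control medians were 5.71% at CHH losses and 1.71% at CHH gains.

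The remaining EAG genes leaned to gains. Kcnh3, an ELK channel of the forebrain, held 2 CG gains, from 50.8% to 75.3% over 18 CG sites (chromosome 15, 99239722 to 99239809) and from 46.3% to 76.5%. Kcnh2, the ERG channel, held a CG gain near its 3′ end (30.6% to 61.9%) that overlapped a CHH gain (1.05% to 3.55%). A CG loss lay at the other end of Kcnh2 (83.2% to 58.0%), 0.978 kb inside the annotated gene. Kcnh5 held 3 CHH gains and 1 loss (5.47% to 1.13%), Kcnh7 held 1 gain (2.26% to 7.76%) and Kcnh4 held no region.

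Among channels gated by calcium or sodium, small-conductance channel genes lost methylation and the others mostly gained it. Kcnn2 and Kcnn3, which encode SK2 and SK3, held 5 and 4 CG losses and no CG gain. The first by area statistic went from 75.5% to 43.4% over 22 CG sites in Kcnn2 (chromosome 18, 45321243 to 45321772) and from 68.8% to 43.4% over 13 in Kcnn3 (chromosome 3, 89523288 to 89523481). In CHH, Kcnn1 and Kcnn3 held 1 loss each (4.82% to 0.448% and 5.35% to 1.39%), and Kcnn2 held 1 loss (4.54% to 0.879%) and 1 gain (0.422% to 3.50%). These SK genes held no CG gain and 1 CHH gain in all.

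Kcnt2, the sodium-activated Slick channel, held 8 CHH gains and no other region, and 148 protein-coding genes, Kcnt2 included, held at least as many. Its first gain (chromosome 1, 140533191 to 140533405, 65 cytosines) went from 2.88% to 11.6%, the highest CHH level in cKO among members. The sodium-activated Slack channel gene Kcnt1 held 1 CHH gain (2.10% to 6.65%). Kcnma1, the BK channel, held 3 CHH gains (the first from 1.15% to 5.35%) and 4 CG regions. These were 3 gains (33.3% to 65.9%, 29.8% to 64.3% and 57.5% to 88.5%) and, between them along the gene, 1 loss (60.7% to 33.9%).

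Inward rectifiers, which pass current near the resting potential and in the case of GIRK channels answer to G proteins, held few regions. Kcnj6 (GIRK2) held 2 CHH gains (1.21% to 8.34% and 0.807% to 4.70%) and 2 CG gains (68.3% to 92.5% and 54.2% to 80.0%). Kcnj9 (GIRK3) held 1 CG gain (52.0% to 75.4%). Kcnj4 (Kir2.3) held 1 CG loss, from 66.2% to 33.2% over 24 CG sites (chromosome 15, 79507704 to 79507825). Kcnj3 (GIRK1) held no region over 186 kb, and was the only member of at least 100 kb without one. The 3 GIRK genes among the members thus held no listed loss, but Kcnj5, a GIRK gene outside the members, held 2 CHH losses. The contrast with the Kir2 gene Kcnj4 rests on 1 region.

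Some members held both a CG loss and a CHH gain, at separate places in the gene. A CG loss and a CHH gain were found together in 9 members, 4 of them Kv genes, where 4.47% of all protein-coding genes had both. Among genes of at least 100 kb, where members were still the longer by median, 7 of 18 members had both. The share over all protein-coding genes of at least 100 kb was 27.5%. For 17 CG losses the nearest CHH region in the gene was a gain, at 7.27 kb or more (median 54.9 kb). Of these 17, 10 lay in genes without a CHH loss, where no other direction was possible. For 11 CG losses it was a CHH loss, at a median of 5.15 kb. All 11 lay in genes without a CHH gain, 5 of them in Kcnip1 with its 44 CHH losses, so the direction was given by the gene. The same holds for 8 of the 9 CG gains in genes with a CHH region, which lay in genes without a CHH loss. The median distance from these 9 to the nearest CHH region was 31.9 kb.

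Around the gene bodies, CHH regions were mostly losses, as they were outside genes in general. Within 100 kb of the members' ends lay 178 CHH regions, of which 132 were in no protein-coding gene. Of these 132, 4 were higher in cKO (3.03%, exact interval 0.832% to 7.58%), and over all CHH regions in no protein-coding gene the share was 2.14%. Of the 46 that lay in another protein-coding gene, 13 were higher (28.3%, 15.99% to 43.5%), below the 41.2% of all protein-coding genes but with an interval that holds it. For CG regions, 0 of 91 outside genes and 9 of 38 in another gene were higher, where 0.744% of all CG regions in no protein-coding gene were. Of the 16 members with more CHH gains than losses, 12 had no CHH gain in their flanks, and 13 had at least 1 CHH loss there. Kcnd3 had 11 CHH losses before its start and 2 after its end, with none inside. The Kcnip1 losses went on beyond the gene, with 10 CHH losses in the 100 kb before its 5′ end and 12 after its 3′ end.

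**Figure D4:**
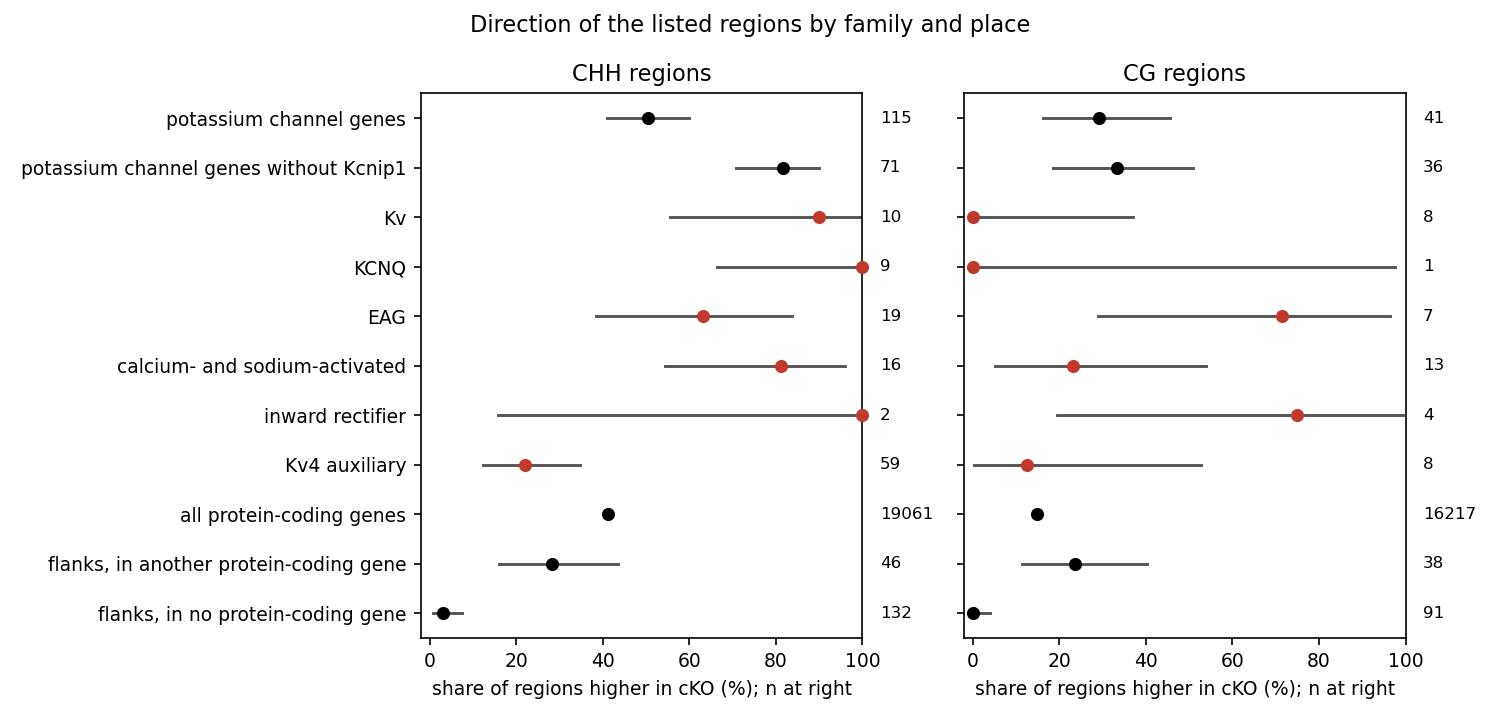
Share of listed regions that were higher in cKO (x axis, percent) for CHH (left) and CG regions (right), by family (red) and by place (black). Lines are exact 95% intervals that cover the counting of regions, and the number of regions stands at the right. The CHH share is 50.4% in the members, 81.7% without Kcnip1 and 3.03% in flanks outside genes.

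The limit of the gene body sets what was counted. Just inside, the region nearest a gene's end was a CG loss 785 bp inside Kcnn2 (61.6% to 29.8%). Just outside, a CG loss lay 459 bp beyond the 5′ end of Kcnj4 (81.6% to 44.4%) and another 525 bp beyond Kcna5 (64.99% to 24.01%).

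Other potassium channel genes carried CHH losses more often than gains. The list held 66 genes, all with a RefSeq position, of two-pore, silent and remaining pore subunits and of auxiliary proteins. Of these 66, 24 held a CHH loss and 8 a CHH gain, where 15.2% and 15.0% of all protein-coding genes did. In all, 79 CHH regions were lower and 29 higher (26.9% higher, against 41.2% in protein-coding genes). The 2 losses in Kcnmb1 are also counted in Kcnip1. A CG loss was held by 21 and a CG gain by 8, where 18.6% and 7.26% of all protein-coding genes held one. These genes are shorter (median 21.3 kb), and the difference from the 33 members was not tested. Of the KChIP genes in this list, Kcnip3 held 3 CHH gains and 0 losses, and Kcnip2 held no CHH region. The dipeptidyl peptidase-like proteins, which also bind Kv4 channels, split as Kcnip1 and Kcnip4 did. Dpp10 held 16 CHH gains and 0 losses, and Dpp6 held 23 CHH losses and 4 gains. The first Dpp10 gain went from 2.64% to 13.4% and the first Dpp6 loss from 6.66% to 1.24%.

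Single regions of other channel genes reached beyond the levels of the members in places. Taking 1 region per gene, the CG losses with the largest area statistic were in Kcnq1, a KCNQ gene (61.7% to 22.8%), Kcnk2, a two-pore channel (48.4% to 9.94%), and the silent subunit gene Kcng4 (52.4% to 34.5%). CG gains included those in Kcnip3 (15.3% to 30.2%) and Kcnq1 (31.4% to 46.6%). In CHH, Kcng2 (14.2% to 1.84%) and Kcnmb2 (3.89% to 0.383%) lost methylation besides Dpp6, while Kcnk2 (2.72% to 10.2%) and Kcnj16 (2.87% to 10.4%) gained it besides Dpp10.

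Regions in marker genes of other cells were mostly lower in cKO. Over all protein-coding genes, 41.2% of CHH regions and 14.8% of CG regions were higher. The CHH regions of 8 interneuron markers were 28 lower, found in 5 of the genes, and 0 higher. Those of 8 endothelial and mural markers were 21 lower, found in 7 of the genes, and 0 higher. For 8 markers each of astrocytes, microglia and the oligodendrocyte lineage they were 10 and 2, 12 and 2, and 4 and 1. The part of these cells in the CHH losses of Kcnip1 and Kcnh8 was not tested. Mitochondrial DNA also read lower in cKO, at its listed regions of every context. The medians of its 10 CG regions were 5.18% (control) and 0.613% (cKO). The medians of its 4 CHH regions were 6.38% (control) and 0.488% (cKO). The differences of these 4 CHH regions ran from -19.6 to -4.97 points, with a median size of 5.87 points. The largest of them was beyond the largest CHH loss in a member (-8.77 points), but their median was not. Of the members' CHH regions, 13 of 57 losses and 12 of 58 gains differed by more than that median. Over all protein-coding genes, 2066 of 11204 CHH losses and 2613 of 7857 CHH gains did. The share of gains above it was thus smaller in members. The members' losses above it were 11 in Kcnip1 and 2 in Kcnh8. Whether the mitochondrial drop has a part in the members' CG or CHH losses, of any size, was not tested.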

How the data were processed

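Whole-genome bisulfite libraries of 2 cKO and 2 control samples were compared. Per the submitters' processing notes, CASAVA, Bowtie2 and mm10 were used, without roles or versions. Of the region caller, its thresholds, the conversion rate and any pooling, each is not given in the sources used here. The deposited table holds called regions only. Per the file headers, each has a mean methylation fraction per group, a difference, an area statistic (a score with no fixed range, used to rank regions) and the count of cytosines (4 or more). The deposited difference matched cKO minus control in all 101350 regions within 1e-09. Depth is unknown, and conversion errors or depth differences would enter the means unseen.

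Regions were joined to RefSeq gene bodies (GRCm38.p6) by at least 1 bp. Gene entries positioned before 3 Mb on the X or an autosome, which is assembly gap, were dropped, and 21792 protein-coding genes were kept. The overlap step was tested on simulated data. Python 3.11.15, pandas 2.3.3 and scipy 1.17.1 were used. Distances to starts used the RefSeq promoter table. The flank of 100 kb was set after the data were seen. Members, families, lists and the naming rule were chosen with earlier results of these data known. The rule named every member, the 8 regions per context and direction with the largest absolute area statistic (1 per gene), the first of each family and context, and the 3 first of the other channel genes. A region that this rule names among the other channel genes is not reported here. Regions named beside these were chosen after their values were seen. No sample was left out, and each file column was used as the header names it. Exons and repeats were not analysed here.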

Additional observations from a re-analysis of the deposited data

How the results depend on the processing

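The 19 counts and shares were recomputed under 131 alternatives, of which 106 stayed within limits: 1.5 times the count, or the 95% exact interval of the share. These intervals are wide for small families, and shares within them still moved. The EAG CHH share went from 63.2% to 40% of 5 regions by area statistic, and with 5 kb upstream the genes with a CHH loss went from 8 to 12 and the inward rectifier CHH share from 100% to 66.7% of 3 regions. With the area statistic at or above the median of its context, 7 genes held a CG loss, 2 a CG gain, 3 a CHH loss and 9 a CHH gain, and 9 had more CHH gains than losses. The CHH share was then 35.4% of 48 regions. With differences of at least 30 points in CG and 6 points in CHH, 3 genes held a CG gain, 2 a CHH loss and 5 a CHH gain, and 5 had more CHH gains. With CHH differences above the mitochondrial median, an alternative chosen after seeing the data, 2 genes held a CHH loss and 6 a CHH gain, and 6 had more CHH gains. These lower counts follow from fewer regions kept. The CHH share was 100% in the Kv genes (1 region at 6 points, 2 above the mitochondrial median) and in the calcium- and sodium-activated genes (5 by area statistic, 3 and 3). The CG share was 0% by area statistic in the calcium- and sodium-activated (3 regions), inward rectifier (1) and Kv4 auxiliary genes (1), and at 30 points in the inward rectifier (1) and Kv4 auxiliary genes (3). Without Kcnip1 the CHH share was 81.7% of 71 regions over all members and 86.7% of 15 in the Kv4 auxiliary genes.

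No paired analysis was possible because the file holds group means and no value per library. For the same reason no library could be left out in turn, and no coverage minimum could be set. Gene bodies with 5 kb upstream were used for the 27 members with a listed strand only. Regions that were not called do not appear, so a gene without one is not shown to be unchanged.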
